A study of Mus musculus with 6 samples.

Results

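Mcm2, E2f1, Ccna2 and Aurkb are 4 genes whose products act at successive steps of the cell division cycle, from the preparation of DNA replication to mitosis. They were chosen by name as a set of replication and cell division genes, and each was read from the counted rows that lie over its exons. They are 4 of the 18126 genes that have at least 50 bp of exon in a counted row. A row is one line of the deposited count tables, and its listed name is mostly not the gene that lies there, because names and reads follow different genome builds. Genes were therefore identified by position, and the row with the most counts stood for each gene. Only E2f1 had a most-counted row to itself. The Ccna2 row (listed as Smim43) also covers exons of Bbs7, the Aurkb row (listed as Alox12b) also covers Borcs6 and the antisense RNA 9330160F10Rik, and the Mcm2 row (listed as Tpra1) also covers the pseudogene Gm36189.

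RNA was sequenced from whole tumours of LG1233-OVA, a line that the labels describe as murine lung cancer and whose name carries OVA, the usual abbreviation of the model antigen ovalbumin. Stable lines had been made with CRISPR/Cas9, a nuclease steered by a guide RNA. Control tumours (sgNT, labelled as wild type, n = 3) and Uhrf1 knockout tumours (sgUhrf1, n = 3) grew from 1000000 cells placed under the skin of female C57BL/6 mice and were collected on day 27. The labels give no age for the mice, and they do not say where the guide cuts or whether a line is 1 clone. Host cells in a tumour keep an intact Uhrf1 gene. The labels call the tumours biological replicates, and p-values here measure the spread between these 3 tumours per group.

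Total counts ran from 5462555 to 6375069 per tumour. The targeted gene Uhrf1, whose product helps keep DNA methylation through replication, stood at 122 ± 21 CPM (counts per 1000000 scaled counts, mean ± SD, n = 3) in sgNT and 94.7 ± 24.5 CPM in sgUhrf1. These values are from its most-counted row, where the difference was -0.37 ± 0.23 (SE) on the log2 scale and did not pass (edgeR adjusted p = 0.227). Another Uhrf1 row had group means of 13.6 ± 5.51 and 6.47 ± 1.7 CPM, the lower one being that of sgUhrf1. Its log2 fold change was larger, -1.08 ± 0.39 (SE), and also missed the threshold (edgeR adjusted p = 0.0524). The remaining Uhrf1 row, with 9 counts over all tumours, was not tested. RNA level is no direct check of a gene edited at the DNA level. Of the lung and epithelial markers, 5 of 12 had a row of their own, and their summed level was 157 to 439 CPM in sgNT and 1693 to 2882 CPM in sgUhrf1. Over all rows, 4187 of 10503 (39.9%) differed at an edgeR adjusted p under 0.05, and 2121 (20.2%) were higher and 2066 (19.7%) lower in sgUhrf1.

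Before a cell copies its DNA, MCM proteins, Mcm2 among them, are loaded as a ring on replication origins and later form the core of the helicase. E2F transcription factors such as E2f1 switch on genes for replication once the retinoblastoma protein lets go of them. Cyclin A2, the product of Ccna2, drives CDK kinases through S phase and into mitosis, and Aurora B kinase, the product of Aurkb, works in the chromosomal passenger complex to correct chromosome attachment and complete division. These genes are known as markers of proliferating cells, so their RNA in a bulk tumour reflects both how many cells are cycling and how much RNA each holds. Fewer cells of a type and less RNA per cell cannot be told apart in such samples.

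E2f1 and the 5′ end of Mcm2 rest on short stretches, shown here because the results below turn on what was counted. The E2f1 row covers 89 bases of exon 2 of 7, a coding exon at chr2:154564418-154564508 (GRCm38, minus strand), with the counted bases in capitals:

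E2f1 exon 2: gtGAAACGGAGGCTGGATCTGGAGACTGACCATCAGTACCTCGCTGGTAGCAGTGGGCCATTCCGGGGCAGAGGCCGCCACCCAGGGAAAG

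The counted exon bases hold 62.9% G and C, and no 31-base stretch of them occurs in the annotated transcripts of another gene (0 other genes). The rest of the E2f1 row was not searched in this way. For Mcm2, the 250 bases upstream of the transcription start (chr6:88898781-88899030, minus strand, from RefSeq on GRCm38.p6) lie inside its 5′ row, so any reads from them were counted there. Capitals mark the letters of a CCAAT box (here on the other strand), the TTTGAA core of the CHR element known from mitotic genes, and GC boxes (GGGCGG):

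Mcm2 upstream: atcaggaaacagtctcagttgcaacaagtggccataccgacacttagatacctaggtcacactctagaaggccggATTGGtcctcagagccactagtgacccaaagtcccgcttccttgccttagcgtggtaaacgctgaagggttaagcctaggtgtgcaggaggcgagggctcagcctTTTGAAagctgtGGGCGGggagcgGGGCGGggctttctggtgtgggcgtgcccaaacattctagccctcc

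Both strands were searched, and the motifs do not overlap each other here. TTTGAA was found 1 time, as in 16% of the 32851 promoters of the RefSeq table, CCAAT 1 time (33.8% of promoters) and GGGCGG 2 times (32.7%). The E2F letters TTTCCCGC, TTTGGCGC, TTTCGCGC and TTTGCCGC were found 0 times in this window and in 1.86% of promoters, and a match or its lack is only a description of these letters. The promoter table holds 2 of the 4 genes, Mcm2 and E2f1.

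E2f1, a transcription factor of the replication programme (ENSMUSG00000027490.17, chr2:154559407-154569892, minus strand), was lower in sgUhrf1 tumours. Counts of its row were 107, 163 and 145 for sgNT replicates 1 to 3 and 52, 19 and 34 for sgUhrf1 replicates 1 to 3. This is 16.9, 24.2 and 25.7 CPM against 9.21, 3.02 and 7.48 CPM. Every sgUhrf1 tumour lay below every sgNT tumour, and sgUhrf1 replicate 2 was the lowest of all. The means were 22.3 ± 4.67 and 6.57 ± 3.19 CPM (SD, n = 3 each), a 3.4-fold lower level. On the log2 scale the change was -1.77 ± 0.41 (SE; edgeR adjusted p = 0.00909). Among all rows tested, 39.9% were called in either direction and 19.7% lower, and in 27.8% the groups did not overlap with sgUhrf1 lower. Over all 16 other settings tried, the E2f1 change ran from -2.12 to -1.42 and passed in each. The counted part is small: 89 of 3154 exon bases (2.82%) in a row of 684 bp, of which 320 bp are E2f1 intron, so reads from unspliced RNA would be counted too. The rest of the row lies outside E2f1, upstream of it and up to chr2:154580371, and any reads there were counted as well. No other gene has 50 bp of exon in the row.

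Mcm2, a subunit of the replicative helicase (ENSMUSG00000002870.8, chr6:88883474-88898780, minus strand), gave different readings at the ends of the gene. Its most-counted row lies toward the 3′ end and covers 1686 of 6956 exon bases, 306 bp of Gm36189 and 1860 bp of Mcm2 intron. It held 774, 911 and 677 counts in sgNT and 960, 781 and 623 in sgUhrf1. On the scaled level, sgNT tumours stood at 123, 135 and 120 CPM and sgUhrf1 tumours at 170, 124 and 137 CPM. The groups overlapped, and sgUhrf1 replicate 1 was the highest. The means were 126 ± 8.05 and 144 ± 23.7 CPM (SD, n = 3 each), with a log2 fold change of 0.19 ± 0.18 (SE) and an edgeR adjusted p of 0.423. Gm36189 is a processed pseudogene whose closest coding match is the ribosomal protein gene Rpl17, at 91.3% identity, so part of these reads may not come from Mcm2.

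The 5′ row of Mcm2 (listed as Gm44178, naming Mcm2 alone) covers exons 1 and 2 of 14 with 756 exon bases, 6578 bp on average from the 3′ end. Besides exon, this row of 2930 bp holds 1335 bp of Mcm2 intron and bases upstream of the gene, where any reads were counted. It held 84, 108 and 73 counts in sgNT and 28, 21 and 26 in sgUhrf1, or 13.3, 16 and 12.9 CPM against 4.96, 3.33 and 5.72 CPM. All 3 sgUhrf1 tumours lay below all 3 sgNT tumours, without overlap, as in 27.8% of all rows tested. The means were 14.1 ± 1.68 and 4.67 ± 1.22 CPM (SD, n = 3 each), 3.03-fold lower in sgUhrf1. On the log2 scale this was -1.60 ± 0.33 (SE; edgeR adjusted p = 0.00562). With both Mcm2 rows summed, the change was 0.084 ± 0.18 with an edgeR adjusted p of 0.74, since the 3′ row holds most of the counts. Within each tumour, the 5′ row held 10.9%, 11.9% and 10.8% of the 3′ row's counts in sgNT and 2.92%, 2.69% and 4.17% in sgUhrf1. These shares averaged 11.2% ± 0.6 and 3.26% ± 0.799 (SD, n = 3 each). They did not overlap, and the two-sided exact permutation p was 0.1, the smallest that 3 against 3 tumours allow.

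**Figure D1:**
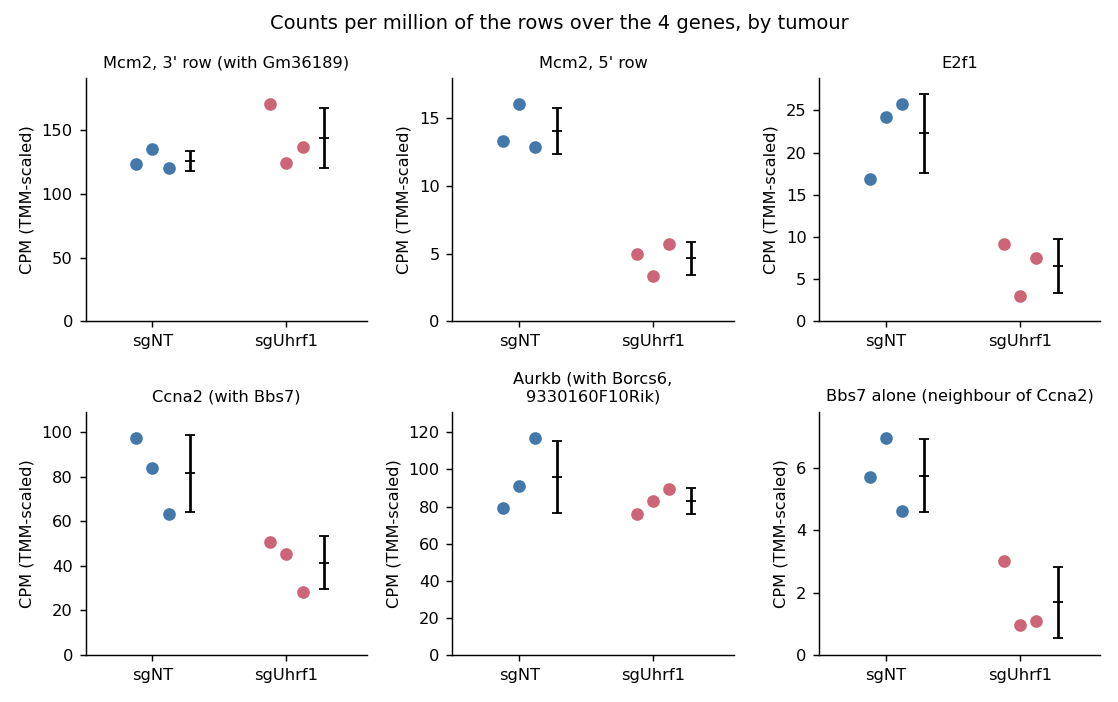
CPM (TMM-scaled, linear axes from 0) of the rows over the 4 genes and of the neighbour Bbs7, with 1 point per tumour and bars for the mean ± SD of 3 tumours. The E2f1, Ccna2 and Mcm2 5′ rows show no overlap between sgNT and sgUhrf1, while the Mcm2 3′ and Aurkb rows overlap. Among all rows tested, 27.8% show no overlap with sgUhrf1 lower.

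Ccna2, the gene of cyclin A2 (ENSMUSG00000027715.9, chr3:36564865-36572150, minus strand), shares its row with Bbs7, a gene of the BBSome complex of cilia. The row covers 909 of 4083 exon bases of Ccna2, in exons 2 and 3 of 9, and 429 bp of Bbs7. Besides these exon bases, the row holds 1155 bp of Ccna2 intron, where reads from unspliced RNA would be counted. In all it is 5992 bp long and also holds bases outside the exons of both genes. It held 616, 566 and 358 counts in sgNT and 287, 286 and 128 in sgUhrf1, or 97.5, 83.9 and 63.4 CPM against 50.8, 45.4 and 28.1 CPM. The groups did not overlap, as in 27.8% of all rows tested with sgUhrf1 lower, and replicate 3 was the lowest in each. The means were 81.6 ± 17.2 and 41.5 ± 11.8 CPM (SD, n = 3 each), 1.97-fold lower in sgUhrf1. On the log2 scale the row changed by -0.98 ± 0.26 (SE; edgeR adjusted p = 0.0171). The call did not hold without sgNT replicate 1 (-0.85, edgeR adjusted p = 0.0547) or without sgNT replicate 2 (-0.98, edgeR adjusted p = 0.0552).

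Bbs7 (ENSMUSG00000037325.10, chr3:36573142-36613477, minus strand) also has a row without Ccna2, listed as Exosc9, over 792 of its exon bases. These lie in exons 3 and 4 of 19, on average 4700 bp from the 3′ end. That row held 36, 47 and 26 counts in sgNT and 17, 6 and 5 in sgUhrf1, or 5.7, 6.97 and 4.61 CPM against 3.01, 0.952 and 1.1 CPM. Bbs7 was thus lower in all 3 sgUhrf1 tumours too, with means of 5.76 ± 1.18 and 1.69 ± 1.15 CPM (SD, n = 3 each). On the log2 scale it changed by -1.76 ± 0.53 (SE; edgeR adjusted p = 0.0281). Leaving out 1 tumour ended this call for 5 of the 6 tumours, with changes between -2.48 and -1.46 and edgeR adjusted p up to 0.102 (without sgNT replicate 2). Per kb of row, the Bbs7 row stood at 1.22 CPM in sgNT and the shared row at 13.6 CPM. The shared row covers Bbs7 exons 16 to 18, near the other end of that gene. How much of the shared row's change belongs to Ccna2 was not tested, and no row with counts covers Ccna2 alone.

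Aurkb, the gene of Aurora B kinase (ENSMUSG00000020897.12, chr11:69045647-69051664, plus strand), showed no change that passed the test. Its row covers 405 of 2946 exon bases, in exon 2 of 5, with 418 bp of Borcs6, a gene of a lysosome-positioning complex (chr11:69059717-69061578, plus strand). It also covers 558 bp of 9330160F10Rik (chr11:69057718-69060483, minus strand), which lies antisense to Borcs6, and counting used no strand. The row held 501, 615 and 661 counts in sgNT and 430, 523 and 408 in sgUhrf1, or 79.3, 91.2 and 117 CPM against 76.1, 83 and 89.7 CPM. The groups overlapped, and sgNT replicate 3 was the highest. The means were 95.9 ± 19.3 and 83 ± 6.79 CPM (SD, n = 3 each), with a log2 fold change of -0.21 ± 0.20 (SE) and an edgeR adjusted p of 0.424. Over 16 other settings, the change ran from -0.35 to -0.05, with edgeR adjusted p from 0.208 to 0.889. With neighbours in the row, a change of Aurkb alone cannot be told apart from one of Borcs6 or the antisense RNA.

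Per kb of row length, the rows over the 4 genes were set side by side, with neighbours, introns and outside bases included. Exon of the gene makes up 405 of 2431 bp in the Aurkb row and 89 of 684 bp in the E2f1 row. It makes up 1686 of 4171 bp in the Mcm2 3′ row, 756 of 2930 bp in the Mcm2 5′ row and 909 of 5992 bp in the Ccna2 row. The order below is thus one of rows and not of gene levels. In sgNT the Aurkb row stood at 32.6 to 48.1 CPM per kb, E2f1 at 24.7 to 37.6 and the Mcm2 3′ row at 28.8 to 32.4. The E2f1 range overlaps both of the others, which do not overlap each other. The Ccna2 row was lower at 10.6 to 16.3 CPM per kb and the Mcm2 5′ row lowest at 4.4 to 5.46. In sgUhrf1 the order was different for E2f1. The Mcm2 3′ row stood at 29.7 to 40.8 CPM per kb and Aurkb at 31.3 to 36.9, which overlap, while E2f1 was at 4.42 to 13.5, overlapping the Ccna2 row at 4.69 to 8.48. The Mcm2 5′ row was again the lowest, at 1.14 to 1.95.

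The 5′ and 3′ rows of Mcm2 are one case of a difference seen across the genes. For 735 genes with at least 2 rows of their own lying 1000 bp or more apart along the transcript, the row farther from the 3′ end was compared with the nearer one. The far row had the lower log2 fold change in 82.4% of genes, with a median difference of -0.81. Within single tumours, the median log2 ratio of far to near row was -1.30, -0.96 and -0.97 in sgNT and -1.80, -1.76 and -2.09 in sgUhrf1. The sgUhrf1 libraries thus held relatively fewer counts far from the 3′ end than any sgNT library, with a two-sided exact permutation p of 0.1, the smallest possible.

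**Figure D2:**
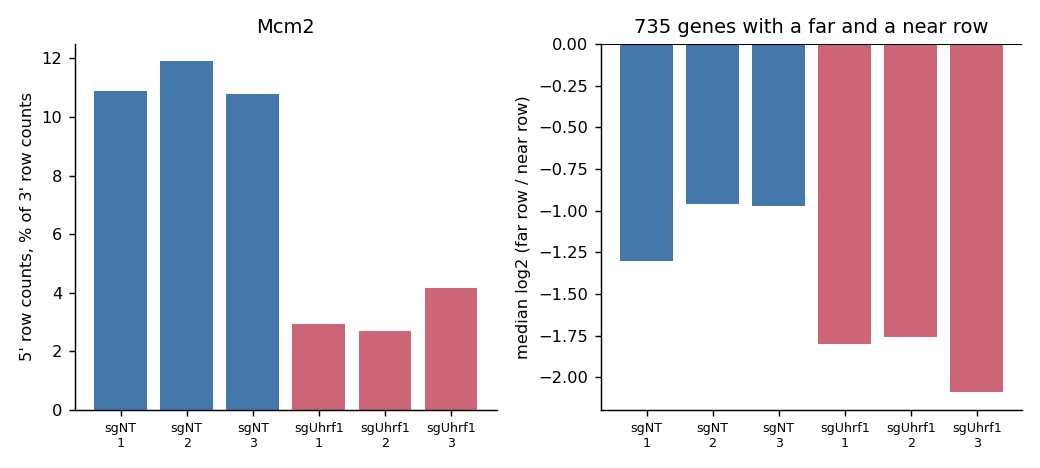
Left, counts of the Mcm2 5′ row as a percent of the Mcm2 3′ row in each tumour; right, the median log2 ratio of the far to the near row over 735 genes in each tumour. The sgUhrf1 tumours sit at 2.69% to 4.17% for Mcm2, below 10.8% to 11.9% in sgNT, and they are also the lowest 3 in the right panel.

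Among all rows that name 1 gene, the median log2 fold change was 0.80 within 500 bp of the 3′ end, where 42.8% of rows were higher and 4.45% lower. It was 0.18 at 1000 to 2000 bp, -0.11 at 2000 to 3000 bp and -0.48 at 3000 to 5000 bp. Beyond 5000 bp it was -0.89, with 7.07% of rows higher and 42.4% lower. The Mcm2 3′ row (1654 bp from the 3′ end) at 0.19 lay close to the median at its distance. The Aurkb row (2293 bp) at -0.21 lay near -0.11. E2f1 (2281 bp) at -1.77 and the Ccna2 row (2833 bp) at -0.98 lay well below that median, in a range where 21.6% of rows were called lower. These distances rest on exon bases of the member gene alone. The introns, neighbours and outside bases that the rows also hold were not placed. The Mcm2 5′ row (6578 bp) at -1.60 lay below the median of -0.89 for the farthest rows.

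A fit with distance offsets, added after the data had been seen, centres each tumour's counts along this distance. There 1843 of 9368 rows (19.7%) were higher and 1562 (16.7%) lower. E2f1 stayed lower at -1.73 ± 0.41 (SE, edgeR adjusted p = 0.0111), and the Ccna2 row at -0.82 ± 0.25 (edgeR adjusted p = 0.0314). The Mcm2 5′ row stood at -0.89 ± 0.34 and no longer passed (edgeR adjusted p = 0.0718). Its 3′ row was at 0.034 ± 0.17 (edgeR adjusted p = 0.897) and Aurkb at -0.17 ± 0.19 (edgeR adjusted p = 0.532). The row of Bbs7 without Ccna2 stood at -1.28 ± 0.51 and no longer passed (edgeR adjusted p = 0.0798). The offsets did not remove the pattern in full, since far rows still lay 0.33 below near rows in the median (-0.33).

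**Figure D3:**
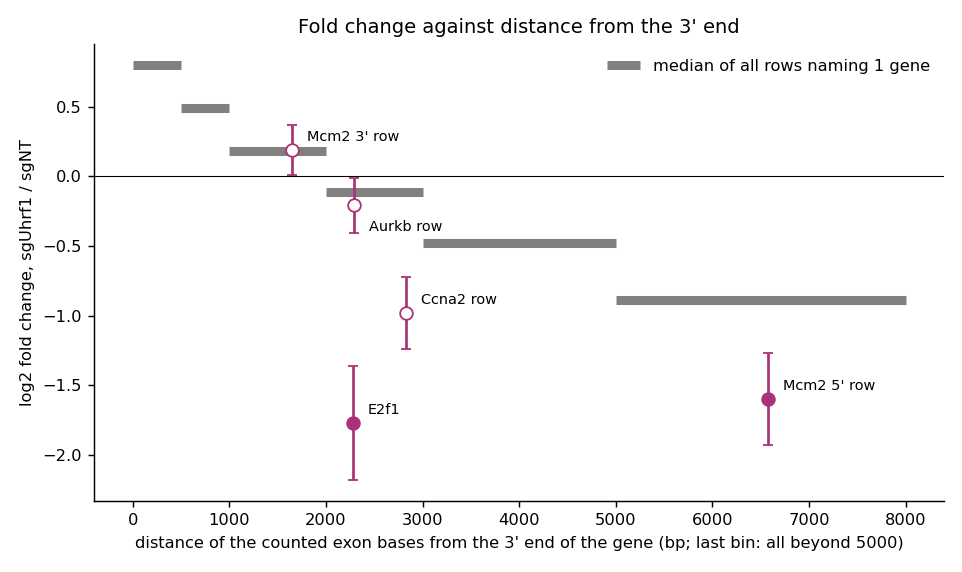
Log2 fold change (sgUhrf1 over sgNT) of the member rows against the mean distance of their counted exon bases from the 3′ end of the gene, with SE bars; filled points name 1 gene, open points are rows shared with other genes, and grey bars are medians of all rows naming 1 gene in each distance range. E2f1 at -1.77 and the Ccna2 row at -0.98 lie below the grey bar of their range, and the Mcm2 3′ row at 0.19 lies on it.

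The genes most alike in their pattern over the 6 tumours were found by the root mean square distance between centred log2 CPM values, among 3235 genes with a row of their own. For E2f1 these were Ghr, the growth hormone receptor gene, at a distance of 0.207, Pdgfra, a growth factor receptor gene of mesenchymal cells, at 0.208, and Cav1, which encodes the caveolae protein caveolin, at 0.211. The median gene lay 1.05 from E2f1. For the Ccna2 row they were 0610010F05Rik at 0.118, Ccdc88a at 0.127 and Smc4, a condensin gene, at 0.13, against a median of 0.67. The Mcm2 3′ row was most like Rab3gap1 (0.0796), Fkbp9 (0.0895) and Daam1 (0.093), and its 5′ row like Plpp3 (0.102), Tpm4 (0.111) and Traf3 (0.115). Aurkb was most like Eif2b2 (0.0685), Mta1 (0.0691) and Tulp4 (0.0725). Except for Smc4, these genes are not in the replication and division lists.

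The other genes of the pathway were taken from 6 lists with 154 genes in all, of which 51 had a tested row of their own. Of these, 4 were higher and 9 lower in sgUhrf1, with a median log2 fold change of -0.21. Over all 4802 genes with a tested row of their own, 991 (20.6%) were higher and 1010 (21%) lower, with a median of 0.0091. With rows shared with other genes counted too, 16 of 94 list genes were higher and 12 lower. Over all 10503 rows tested, 20.2% were higher and 19.7% lower. A change in a shared row may belong to a neighbour.

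In replication licensing, 4 of 19 genes had a tested row of their own, 0 higher and 1 lower (Mcm2, by its 5′ row), with a median of -0.20. The 9 rows shared with other genes gave 0 calls, among them Mcm7, another helicase subunit, in a row with Cops6 at -0.35 (edgeR adjusted p = 0.124). At the replication fork, 14 of 37 genes were tested, 0 higher and 2 lower, with a median of -0.12. Both act in DNA synthesis: Pola1, the catalytic subunit of polymerase alpha, at -1.43 ± 0.34 (SE, edgeR adjusted p = 0.00992), and Rfc1, the large subunit of the clamp loader, at -1.64 ± 0.57 (edgeR adjusted p = 0.0457). Among 11 shared rows, 4 were higher and 1 lower. They include a row of Timeless with Stat2 at 1.16 and one of Gins2 with Gm45834 and Gm10614 at -1.28. Timeless in its row of its own lay in the other direction, at -0.51 ± 0.51, and did not pass (edgeR adjusted p = 0.45).

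Around E2f1 itself, 10 of 27 genes of the E2F and RB list were tested, 1 higher and 2 lower, with a median of -0.39. Rb1, which encodes the retinoblastoma protein that holds E2F factors in check, was lower at -1.55 ± 0.51 (SE, edgeR adjusted p = 0.0384). Cdk6, a kinase that phosphorylates it, was higher at 1.10 ± 0.25 (edgeR adjusted p = 0.00858) in its row of its own. A second row, over 2280 of its exon bases and shared with Fam133b and 1700109H08Rik, lay in the other direction at -0.44 ± 0.21 and did not pass (edgeR adjusted p = 0.123). Of 9 shared rows, 3 were higher and 1 lower, and the largest 2 changes were those of the D cyclins, Ccnd2 with Gm43126 at 1.21 and Ccnd3 with Gm20517 and Usp49 at 1.06. Of the CDK inhibitors, only Cdkn1a (p21) had a tested row of its own, at 1.05 ± 0.40 (edgeR adjusted p = 0.0634). Cdkn2d, in a row with Ap1m2 and Kri1, stood at 3.63, and Ap1m2 is an epithelial gene.

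In the list of mitotic entry and anaphase control, which holds Ccna2, 5 of 28 genes were tested, 1 higher and 2 lower, with a median of 0.14. Wee1, the kinase that restrains CDK1 before mitosis, was lower at -3.32 ± 0.62 (SE, edgeR adjusted p = 0.00352), and Anapc1, a subunit of the anaphase-promoting complex, at -2.65 ± 0.36 (edgeR adjusted p = 0.00079). Ccnf, which encodes cyclin F, was higher at 0.94 ± 0.27 (edgeR adjusted p = 0.0235). Of 11 shared rows, 2 were higher and 3 lower. The lower ones were the Ccna2 row, Cdc27 with Gm22000 at -2.14 and Cdc16 with Upf3a at -1.33. Cdc27 and Cdc16 encode further subunits of the anaphase-promoting complex.

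Around Aurkb, 17 of 36 genes of the passenger complex, spindle and cytokinesis list were tested, 2 higher and 2 lower, with a median of -0.27. Incenp, the scaffold of the Aurora B complex, was higher at 0.61 ± 0.20 (SE, edgeR adjusted p = 0.0392). Kif11, a spindle motor, was higher at 0.95 ± 0.32 (edgeR adjusted p = 0.0422). The condensin genes Smc4 and Smc2 were lower, at -0.83 ± 0.22 (edgeR adjusted p = 0.016) and -0.61 ± 0.20 (edgeR adjusted p = 0.035). A second Smc4 row, shared with Ift80, held more counts (4658 against 3908). It stood at 0.042 ± 0.22 and did not pass (edgeR adjusted p = 0.895). Of 14 shared rows, 3 were higher and 1 lower, led by Racgap1 with Asic1 at -1.66 and Haspin, a histone kinase that recruits Aurora B, with Itgae at 1.37. Itgae is a lymphocyte integrin gene. In rows of its own, Racgap1 stood at -0.40 ± 0.18 (edgeR adjusted p = 0.1) and 0.18 ± 0.20 (edgeR adjusted p = 0.506).

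**Figure D4:**
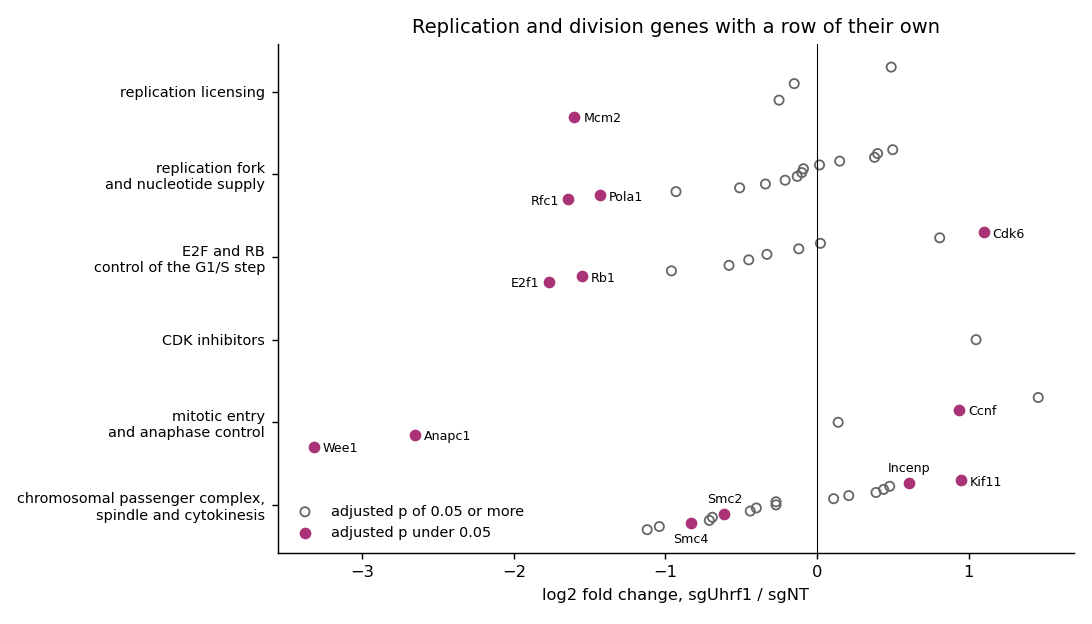
Log2 fold change (sgUhrf1 over sgNT) of the 51 list genes with a tested row of their own, 1 point per gene. Each gene is shown by its most-counted row naming 1 gene, filled and named where the edgeR adjusted p was under 0.05. In all 13 are filled, 9 to the left of 0 and 4 to the right, with Wee1 at -3.32 the lowest.

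Distance from the 3′ end moved with these calls too. List rows within 2000 bp of it had a median log2 fold change of 0.39 (24 rows, of which 16.7% were higher and 4.17% lower), and those beyond had one of -0.60 (42 rows, 2.38% higher and 28.6% lower). All rows naming 1 gene gave a median of 0.41 within 2000 bp, with 31% higher and 8% lower, and one of -0.51 beyond, with 10.5% higher and 33.6% lower. Kif11 shows both directions within 1 gene. Its row 252 bp from the end was higher at 0.95, and a row at 4520 bp was lower at -0.92 ± 0.32 (SE, edgeR adjusted p = 0.0482). Of 10 list genes with a far and a near row, the far row was lower in 8, among them Pola2 by a difference of -2.03 and Ccnf by one of -1.98. With distance offsets, 2 of the 51 genes were higher and 8 lower. Pola1, E2f1, Cdk6, Anapc1, Wee1 and Smc4 still passed there, and Mcm2, Rfc1, Rb1, Ccnf, Kif11, Incenp and Smc2 did not. A further 4 genes passed only there. Bub3, a spindle checkpoint gene, was higher at 0.72 (edgeR adjusted p = 0.0217). Racgap1 (-0.59, edgeR adjusted p = 0.0246), Tpx2 (-1.18, edgeR adjusted p = 0.029) and Kif4 (-0.63, edgeR adjusted p = 0.0351), all of the spindle and cytokinesis list, were lower.

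Single tumours and the choice of fit decided several of these calls. Leaving out 1 tumour at a time ended the call of Rfc1, Rb1 and Incenp for 5 of the 6 tumours, that of Ccnf, Kif11 and Smc2 for 4, and that of Smc4 for 1, sgNT replicate 2 (-0.83, edgeR adjusted p = 0.0546). The highest edgeR adjusted p was 0.105 for Rfc1 (-1.54, without sgUhrf1 replicate 2) and 0.177 for Rb1 (-1.16, without sgNT replicate 2). It was 0.132 for Incenp (0.60) and 0.101 for Smc2 (-0.61), both without sgNT replicate 2. For Kif11 it was 0.137 (0.75) and for Ccnf 0.074 (0.91), both without sgNT replicate 3. E2f1, the Mcm2 5′ row, Pola1, Cdk6, Wee1 and Anapc1 passed without any 1 of the 6 tumours. With the replicate number as a block, Rb1 (edgeR adjusted p = 0.0916), Kif11 (0.0738), Incenp (0.0737) and Smc2 (0.0694) no longer passed. Rb1 and Kif11 also missed the threshold in limma-voom (adjusted p = 0.0637 and 0.0503), Kif11 and Incenp with upper quartile factors (edgeR adjusted p = 0.0626 and 0.0751), and Incenp without a filter on low counts (edgeR adjusted p = 0.172).

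Markers of other cells differed between the groups as well. The summed level of 6 T and NK cell markers with a row of their own (of 14) was 10.5 to 28.2 CPM in sgNT and 111 to 269 CPM in sgUhrf1, all 6 higher at an adjusted p under 0.05. The most-counted row of Ptprc, the pan-leukocyte gene, had means of 8.76 ± 2.7 and 10.8 ± 2.84 CPM (SD, n = 3 each). Its log2 fold change was 0.30 ± 0.36 (SE, edgeR adjusted p = 0.534). The other tested rows of Ptprc lay in the opposite direction, at -0.96 ± 0.51 (edgeR adjusted p = 0.164) and -0.76 ± 0.53 (edgeR adjusted p = 0.285). None of these rows passed, and their signs differ, so no direction is read for Ptprc. The 5 of 13 myeloid markers summed to 188 to 265 and 273 to 646 CPM, and the 2 of 7 B and plasma cell markers to 0.445 to 71.1 and 7.26 to 11.3 CPM. The 7 of 9 fibroblast markers summed to 11927 to 17930 CPM in sgNT and 9521 to 26704 in sgUhrf1, and the 4 of 7 endothelial markers to 35.3 to 81.9 and 44.6 to 90.4. The 6 of 14 skeletal muscle markers summed to 4.96 to 525 and 22.6 to 437 CPM, high in sgNT replicate 2 and sgUhrf1 replicate 1. None of these markers with a row was at 0 counts over all tumours (0 genes in each list). With that muscle-rich pair of tumours left out, E2f1, Rfc1, Wee1 and Anapc1 still passed. The other 9 calls of list genes ended, Pola1 at -1.40 (edgeR adjusted p = 0.105) and Cdk6 at 1.18 (edgeR adjusted p = 0.0565) among them. The Ccna2 row (-1.13, edgeR adjusted p = 0.0655) and the Mcm2 5′ row (-1.55, edgeR adjusted p = 0.074) did not pass there. The part of host cells in the levels of E2f1, Mcm2, Ccna2 and Aurkb was not tested.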

How the data were processed

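The deposited unit is the count of read pairs per annotated row, not normalized, 1 table per tumour. Per the file headers, featureCounts 2.0.1 counted paired reads over exons of GENCODE M26 without strand and without chimeric pairs, after a quality filter that is not given in the sources used here. Per the submitters' processing notes, fastp and STAR were used with GRCm38. M26 follows GRCm39, so rows were renamed by position with GENCODE M21 (GRCm38), at 50 bp of exon or more, leaving small RNA genes aside. Of 53599 rows, 13892 name 1 gene (50.5% of counts), 4437 cover several (47.6%) and 34135 touch no M21 exon (1.1%).

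Rows were tested with edgeR 4.0.16 in R 4.3.3 (quasi-likelihood F test, TMM scaling, filterByExpr with minimum count 10 and minimum total 15, Benjamini-Hochberg over 10503 rows, threshold 0.05). The fit was also run on simulated counts with a common spread for all rows, which is no check of its behaviour in these tumours. CPM is per 1000000 scaled counts. The depth allows a level of up to 0.445 to 0.66 CPM per tumour at a count of 0 (3 counts, counting error only). Distance from the 3′ end is the mean over counted exon bases, and distance offsets used loess with span 0.3. In a shared row the distance is that of the member gene, or otherwise of the gene with the most exon bases there. Permutation tests used scipy 1.17.1, and the pseudogene match BLAST 2.17.0.

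The members and gene lists were chosen with earlier results of these data known. Named from each list were up to 4 genes with a row of their own past the threshold by size of change, or up to 2 tested genes with the most counts where none passed, and 2 shared rows past it. The 5′ row of Mcm2, other rows of member genes and those of their neighbours were named whenever they held counts. The 3 most alike genes had a mean log2 CPM of at least 3. Mcm7, the second Kif11 row and the examples of far and near rows were chosen after their values were seen. So were the further rows of Uhrf1, Ptprc, Timeless, Smc4 and Racgap1. Same-numbered tumours did not deviate together (correlations -0.079, -0.021 and 0.05), so replicate numbers were not taken as pairs. Alternatives were other scalings, filters and tools, a replicate block, left-out tumours, other naming rules and the distance offsets.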

Additional observations from a re-analysis of the deposited data

How the results depend on the processing

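Of the rows over the 4 genes and the list genes whose own row passed in the main fit, none changed direction under the alternatives tried. Some list genes that did not pass by their most-counted row changed direction with distance offsets, such as Mcm10 (-0.25 to 0.25) and Pola2 (-0.21 to 0.14). E2f1 passed and the Mcm2 3′ and Aurkb rows did not pass under each of them. Leaving out 1 tumour at a time gave 1431 to 2020 rows higher and 1259 to 1908 lower, with the fewest lower without sgNT replicate 2. It gave 1 to 5 pathway genes higher and 5 to 8 lower, and a Ccna2 change of -1.15 to -0.77. Leaving out the muscle-rich pair, sgNT replicate 2 and sgUhrf1 replicate 1, gave 1094 rows higher and 771 lower, 0 pathway genes higher and 4 lower, -1.55 for the Mcm2 5′ row and -1.13 for Ccna2, with fewer samples. Pathway genes higher numbered 2 with upper quartile factors and 2 with distance offsets, where the Mcm2 5′ row stood at -0.89 and the median difference of far and near rows at -0.33. At 200 bp of exon or more, 4 of 37 tested pathway genes were lower, fewer genes being tested. With shared rows counted, 16 of 94 were higher and 12 lower. The cause of the other shifts was not tested. With the replicate number as a block, 1838 rows were higher and 1807 lower, 3 pathway genes were higher and 8 lower, and E2f1 (-1.84), the Mcm2 5′ row (-1.61) and the Ccna2 row passed, while the list genes Rb1, Kif11, Incenp and Smc2 did not. The median log2 fold change of all rows was 0.019, against 0.12 without a filter on low counts and -0.077 with upper quartile factors. Summing was not run for E2f1, which has 1 row, and no counted row lies over Ccna2 or Aurkb alone. Depth was low for the Bbs7 row (5 to 47 counts per tumour), E2f1 (19 to 163) and the Mcm2 5′ row (21 to 108). It was also low for the rows of Wee1, Rb1 and Rfc1, with 189, 172 and 196 counts over all tumours.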
